A study of Mus musculus with 6 samples.

Results

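Vasopressin and cAMP signalling was followed through 10 genes in the kidneys of *Pkd1*-mutant mice. They were the vasopressin receptors *Avpr1a* and *Avpr2*, the adenylyl cyclases *Adcy3*, *Adcy5* and *Adcy6*, the phosphodiesterases *Pde1a*, *Pde3a* and *Pde4d*, and the protein kinase A subunits *Prkaca* and *Prkar1a*. The genes were chosen by name from this pathway, with earlier results of these data known. Every entry of the authors' transcript table that carries one of these symbols was taken. All 10 were found, out of 23276 gene symbols in the table, and together they held 34 of its 54721 transcripts.

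Total RNA of whole kidneys was sequenced from 6 mice at postnatal day 22. The 3 *Pkd1* F/RC SKO mice had the genotype KspCre; Pkd1 F/RC. The 3 *Pkd1* F/RC DKO mice carried, in addition, the floxed alleles written F/F of the miR-17-92 cluster. The cluster is a single transcript that is cut into mature microRNAs, of which 6 were used here. Both groups shared Ksp/Cre, a Cre recombinase driven in kidney tubules by the Ksp-cadherin promoter, 1 floxed *Pkd1* allele (F) and 1 hypomorphic *Pkd1* allele (RC) that is present in every cell of the body, and neither group was wild type. Cre acts in tubule cells and not in vessels, glomeruli or interstitium, so whole kidney RNA mixes recombined and other cells. In bulk RNA, fewer cells of a type and less RNA per cell cannot be told apart.

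The table gives, for each transcript, a single mean abundance over the 6 kidneys in log2 CPM (reads counted on the transcript, scaled to the library size), apart from the authors' own comparison of the groups, which was not used. All levels below are that pooled mean as the authors computed it, turned back to CPM. They therefore carry no SD and no test, they say nothing of SKO against DKO, and the depth of each library is unknown. The lowest value in the table, 0.0263 CPM, was shared by 4617 transcripts and was read as the floor. It is not a measured limit of detection.

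Vasopressin reaches principal cells of the collecting duct through the V2 receptor, which couples to the G protein Gs and so to adenylyl cyclase. The cyclic AMP that is made releases the catalytic subunits of protein kinase A from its regulatory subunits, and the kinase brings the water channel aquaporin-2 to the apical membrane. Phosphodiesterases end the signal by hydrolysing cyclic AMP. In polycystic kidneys cyclic AMP drives fluid secretion and proliferation of cyst epithelium, and blockers of the V2 receptor slow cyst growth.

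The seeds of the deleted cluster are shown first because the loss of these microRNAs is what the study set between its groups. The 6 mature sequences used come from RefSeq on GRCm38.p6, with other mature products of the cluster left out. They are written 5′ to 3′ and carry the seed (bases 2 to 8) in capitals.
miR-17-5p: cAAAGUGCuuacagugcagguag
miR-20a-5p: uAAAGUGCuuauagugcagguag
miR-18a-5p: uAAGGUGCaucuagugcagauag
miR-92a-3p: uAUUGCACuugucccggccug
miR-19a-3p: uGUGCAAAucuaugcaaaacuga
miR-19b-3p: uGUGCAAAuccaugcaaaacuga
The seed of miR-17 and miR-20a was the same, as was that of miR-19a and miR-19b, so 4 different 7-base matches were looked for on the sense strand of 3′-UTRs. These were GCACTTT for miR-17 and miR-20a, GCACCTT for miR-18a, GTGCAAT for miR-92a and TTTGCAC for miR-19a and miR-19b.

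A match was present in 4 of the 10 genes, against 34.2% of 11971 genes with a 3′-UTR and a mean of at least 1 CPM. *Adcy3* and *Prkar1a* each held 1 match to miR-92a, and *Pde3a* and *Pde4d* each held 1 to miR-18a. None of the 10 genes held the match to miR-17 and miR-20a, which 14.9% of all these genes hold, and none held the match to miR-19, which 13.4% hold. The 4 sites are shown with 7 bases on each side and the match in capitals, on GRCm38 and the plus strand, from the 3′-UTR of the GENCODE M21 transcript used for each gene.
Adcy3, chr12:4213292-4213312: gcagaaaGTGCAATatttcct
Prkar1a, chr11:109669399-109669419: tatctttGTGCAATttaaata
Pde3a, chr6:141499343-141499363: agactgaGCACCTTttgttct
Pde4d, chr13:109952172-109952192: tttactcGCACCTTagaggtc
The *Adcy3* match lay at bases 512 to 518 of a 738-nt 3′-UTR and the *Prkar1a* match at bases 1804 to 1810 of 2054. The *Pde3a* match lay at bases 457 to 463 of 8555, the longest 3′-UTR of the set and longer than that of 99.4% of the genes. The *Pde4d* match lay at bases 835 to 841 of the 2117-nt 3′-UTR of another transcript than the one whose level is given below, whose own 3′-UTR has 130 nt. The median 3′-UTR of the 10 genes was 2026 nt, against 1230.0 nt over all genes, and per kb of 3′-UTR they held 0.166 matches against 0.307. The rate of the 10 genes rests on 4 matches and on a summed length that includes the 8555 nt of *Pde3a*, and the difference was not tested. A match in letters is a description and not a shown binding site.

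All 10 genes were expressed at 1 CPM or more. Of all gene symbols, 55.9% reached 1 CPM by their highest transcript. The mean of the highest transcript ranged from 2.50 CPM for *Adcy3* to 138 CPM for *Prkar1a*, with a median of 16.5 CPM, and even *Adcy3* stood 95.1-fold above the floor. The median place of the 10 genes was percentile 76.7 of all gene symbols, but 58.3 of those at 1 CPM or more. Long transcripts collect more reads, so genes were compared by CPM per kb, the mean CPM of a gene's highest RefSeq transcript divided by the length of the GENCODE transcript paired with it. On that scale 7 of the 10 genes stood above the median gene (1.43 CPM per kb), and *Adcy3*, *Adcy5* and *Pde3a* stood below it. The place of *Pde3a* rests on its RefSeq transcript (0.461 CPM per kb), since its assembled transcript over the longest coding length gives 1.54.

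**Figure D1:**
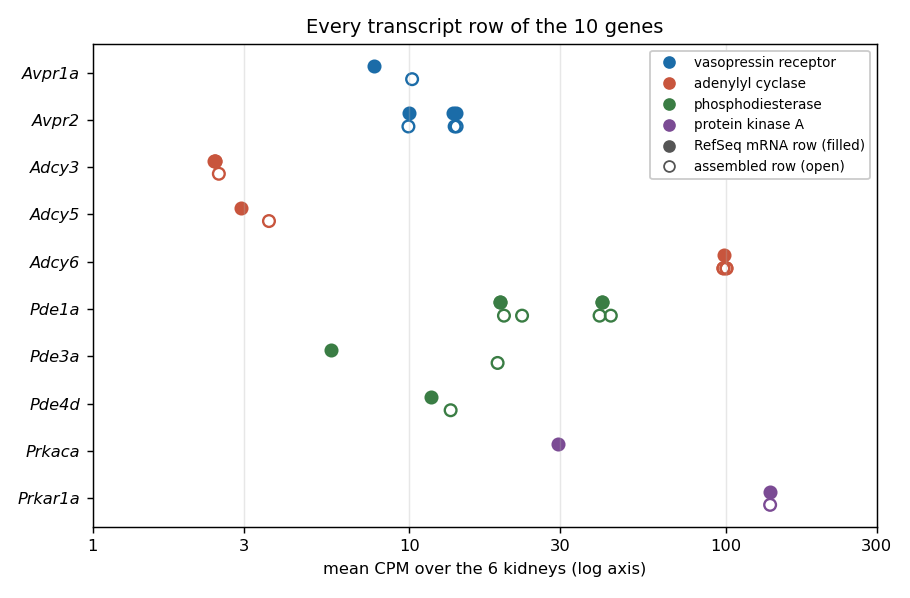
Mean CPM over the 6 kidneys (log axis) for each of the 34 transcripts of the 10 genes, RefSeq mRNAs as filled and assembled transcripts as open circles, coloured by role. Adcy6 and Prkar1a stand near or above 100 CPM, Adcy3 and Adcy5 under 4 CPM, and Pde1a falls into a pair of tiers.

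The tissue was checked against marker genes. All 7 principal cell markers were above 1 CPM, with *Aqp2*, the vasopressin-regulated water channel, at 77.7 CPM, *Aqp3* at 75.8, *Hsd11b2* at 108, *Scnn1b* at 61.9, *Scnn1g* at 42.2, *Fxyd4* at 18.4 and *Avpr2* itself at 14.1. The other kidney lists were also above 1 CPM throughout, and they spanned the thick ascending limb (*Umod* 1022, *Slc12a1* 618 and *Cldn16* 7.98 CPM), the distal convoluted tubule (*Slc12a3* 169, *Trpm6* 10.4 and *Pvalb* 3.14) and intercalated cells (*Atp6v1b1* 82.6, *Foxi1* 29.6, *Slc4a1* 23.1 and *Slc26a4* 17.7). Proximal tubule markers were high (*Slc34a1* 1030.2, *Lrp2* 567, *Cubn* 128 and *Slc5a2* 108 CPM). Podocytes (*Podxl* 131 and *Nphs1* 13), endothelium (*Pecam1* 52.7, *Cdh5* 44.2 and *Kdr* 27.0) and vascular smooth muscle (*Acta2* 83.7, *Tagln* 57.2 and *Myh11* 20.8) were present too. Of the lists that do not belong to kidney, muscle (*Myh6* 0.171, *Acta1* 0.0890 and *Ckm* 0.0573) and germ cells (*Ddx4* 0.208, *Tnp1* and *Prm1* both at the floor) stayed under 1 CPM, and the liver list gave *Alb* 13.4, *Apoa1* 1.4 and *Cps1* 0.699 CPM. The pooled means could not be used to check the genotype labels, and *Pkd1* stood at 31.8 CPM and *Mir17hg*, the host transcript of the cluster, at 4.21 CPM over both groups.

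Of the vasopressin receptors, *Avpr2* was the more abundant. *Avpr2* encodes the Gs-coupled V2 receptor and lies on the plus strand of chromosome X (GRCm38 73892102 to 73895502). Its 3 RefSeq transcripts had 14.0 (NM_019404), 13.7 (NM_001276298) and 10 (NM_001276299) CPM, and its 3 assembled transcripts 14.1, 13.9 and 9.93 CPM. NM_001276299, the lowest RefSeq form, encodes 160 codons, against 371 in NM_019404 and 334 in NM_001276298, and all 936 of its bases lie within NM_019404, so reads on it cannot be assigned to it alone. *Avpr1a* encodes the V1a receptor, which couples to Gq and calcium, lies on chromosome 10 (122448499 to 122453452, plus strand) and has 2 exons. Its RefSeq transcript (NM_016847, 423 codons) had 7.71 CPM and its assembled transcript 10.2 CPM.

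Per length, *Avpr2* reached 7.71 CPM per kb and *Avpr1a* 2.89 CPM per kb, a 2.67-fold difference in level. The gap narrowed to 1.32-fold when the highest transcript was divided by the longest coding transcript of each gene. *Avpr2* thus made up 71.8% of the summed level per kb of the 4 receptors of the family and *Avpr1a* 26.9%, or 56.2% and 42.4% with the other lengths. The remaining members were under 1 CPM. *Oxtr*, the oxytocin receptor, had 0.588 CPM and *Avpr1b*, the pituitary V1b receptor, was at the floor.

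The *Avpr2* value has a strand limit. All 1812 bases of NM_019404 lie within annotated exons of *Arhgap4*, a gene on the opposite strand, but only 77 of them lie within its RefSeq transcript NM_138630. That transcript had 2.82 CPM, or 0.841 CPM per kb. The libraries were strand-specific, but whether the counting used the strand is not given in the sources used here, and without strand, reads of both genes cannot be told apart.

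Among the cyclases, *Adcy6* stood far above the rest. *Adcy6* encodes a calcium-inhibited cyclase, the main one that vasopressin activates in the collecting duct, and lies on the minus strand of chromosome 15 (98589973 to 98610076). Its 5 transcripts were nearly equal, at 100.5, 100.4, 98.3 and 98.2 CPM for the assembled forms and 98.6 CPM for NM_007405. How many bases these forms share is not known, so the values cannot be read as 5 separate levels. *Adcy5*, the closest relative of *Adcy6* and likewise inhibited by calcium (chromosome 16, 35154877 to 35305738, plus strand), had 2.94 CPM for NM_001012765 and 3.60 CPM for an assembled form. *Adcy3*, a cyclase of olfactory and primary cilia (chromosome 12, 4133103 to 4213525, plus strand), had 2.43, 2.43 and 2.42 CPM for NM_001159536, NM_001159537 and NM_138305 and 2.50 CPM for an assembled form. The paired GENCODE transcript of NM_001159536 and NM_001159537 was the same, so they cannot be separated.

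Per length, *Adcy6* reached 16.3 CPM per kb, *Adcy3* 0.513 and *Adcy5* 0.420. The level of *Adcy6* was 31.8-fold that of *Adcy3* and 38.9-fold that of *Adcy5*, and 33.0-fold and 32.4-fold with the highest transcript over the longest coding transcript. *Adcy6* made up 74.1% of the summed level per kb of all 10 cyclases (71.5% with the other lengths). The nearest cyclase by the paired length was *Adcy1*, a calcium-stimulated form, at 1.29 CPM per kb, and by the longest transcript *Adcy9*, at 2.09, so the place next to *Adcy6* depended on the length. *Adcy4* and *Adcy7* were at 1.13 and 1.12 CPM per kb. *Adcy3* and *Adcy5* took places 6 and 7 and exchanged them under the other lengths, so their order is not settled by these values. *Adcy2* (0.415 CPM), *Adcy10* (0.0927) and *Adcy8* (0.0306) were under 1 CPM. Of the 4728 bases of the *Adcy3* transcript, 29.2% lie in exons of *Cenpo*, a centromere protein gene on the opposite strand with 2.33 CPM, a level close to that of *Adcy3*, so the strand limit given for *Avpr2* applies to it as well. Smaller shares of the exonic bases of *Adcy6* (8.92%, with *Gm29331*) and *Pde3a* (5.82%, with *Gm28523*) overlap a gene on the opposite strand.

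**Figure D2:**
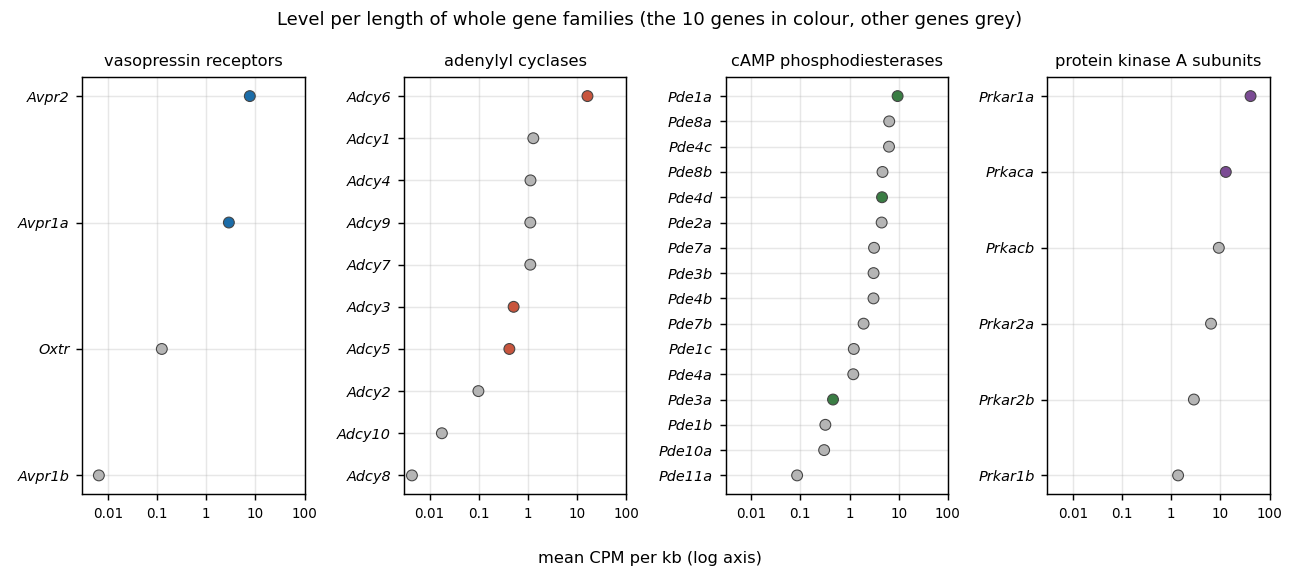
Mean CPM per kb over the 6 kidneys (log axis) for every gene of the 4 families the 10 genes belong to, with the 10 genes in colour and the others in grey. Adcy6 stands apart from the other cyclases at 16.3 CPM per kb, Prkar1a leads the kinase subunits at 41.1, and the phosphodiesterases range from Pde1a at 9.50 down to Pde11a at 0.0858.

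No phosphodiesterase made up as large a share of its family as *Adcy6* did of the cyclases (18.7% per kb for the first, *Pde1a*, against 74.1%). *Pde1a*, which is activated by calcium and calmodulin and hydrolyses both cyclic AMP and cyclic GMP, was the highest of the 3 at 43.3 CPM. *Pde3a*, whose enzyme is inhibited by cyclic GMP, had a highest transcript of 19.0 CPM, and *Pde4d*, which is specific for cyclic AMP and is held at signalling complexes by anchoring proteins, had 13.5 CPM. Of 16 phosphodiesterase genes that act on cyclic AMP, 15 were at 1 CPM or more, and *Pde11a* (0.359 CPM) was not.

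*Pde1a* (chromosome 2, 79834453 to 80129458, minus strand) had 8 transcripts in a pair of tiers that did not overlap. The upper tier held 43.3 and 39.9 CPM for assembled forms and 40.5 CPM for both NM_001159582 and NM_016744, which encode 545 codons and start at 80129458 and 80128939. The lower tier held 22.7 and 19.9 CPM for assembled forms and 19.3 CPM for both NM_001009978 and NM_001009979, which encode 456 and 465 codons and start at 79908433, inside the gene. The RefSeq transcripts of the upper tier had 2.10-fold the CPM of those of the lower tier. Because 1349 bases are common to NM_016744 (4258 nt in the paired annotation) and NM_001009978 (1646 nt), and because the upper transcripts are longer, the tiers do not measure how much of each form was made. NM_001159582 and NM_016744 hold the same value although their paired lengths are 2439 and 4258 nt, so the annotation the authors counted on need not have these lengths. The level of *Pde1a* was 9.50 CPM per kb with the longer of these lengths and 16.6 with the shorter.

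The values of *Pde3a* depended most on the transcript. Its RefSeq transcript NM_018779 (chromosome 6, 141249269 to 141507448, plus strand) had 5.67 CPM and its assembled transcript 19.0 CPM, a ratio of 3.34, the largest between the highest row and the RefSeq row among the 10 genes. The paired transcript is also the longest, at 12302 nt, of which 8555 nt are 3′-UTR. *Pde3a* accordingly had 0.461 CPM per kb by its RefSeq transcript and 1.54 by its assembled one over the longest coding length. *Pde4d* spans 1504 kb of chromosome 13 (108449948 to 109953461, plus strand) with 20 GENCODE transcripts, but only 1 RefSeq transcript (NM_011056, 747 codons, 11.7 CPM) and 1 assembled transcript (13.5 CPM) carry its symbol in the table. Levels of its long and short enzyme forms could therefore not be separated.

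Per length, *Pde1a* was first of the 16 phosphodiesterases with 18.7% of their summed level per kb, followed by *Pde8a* at 6.41 and *Pde4c* at 6.35 CPM per kb. *Pde4d* was in place 5 with 4.58 CPM per kb, and *Pde3a* in place 13. With the highest transcript over the longest coding transcript, *Pde1a* kept place 1 with 19.6%, *Pde4d* moved to place 7 and *Pde3a* to place 11. The level of *Pde1a* was 2.07-fold that of *Pde4d* and 20.6-fold that of *Pde3a*, or 3.17-fold and 6.60-fold with those lengths. *Pde4d* stood 9.94-fold above *Pde3a*, or 2.08-fold with those lengths. Without division by length the direction turned, with *Pde3a* at 19.0 and *Pde4d* at 13.5 CPM. For *Pde1a*, the 18.7% share and the ratios of 2.07 and 20.6 rest on the longer paired length of its tied RefSeq transcripts. With the shorter length (16.6 CPM per kb) each would be larger.

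The regulatory subunit *Prkar1a* was the highest of the 10 genes. It encodes the type I alpha regulatory subunit, which holds the catalytic subunits inactive until cyclic AMP binds, and lies on chromosome 11 (109649405 to 109669656, plus strand). Its RefSeq transcript NM_021880 and an assembled transcript both had 138 CPM. *Prkaca*, the main catalytic subunit (chromosome 8, 83972993 to 83996443, plus strand), had 29.4 CPM for NM_008854, its only transcript in the table.

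Per length, *Prkar1a* reached 41.1 CPM per kb and *Prkaca* 12.9, a 3.18-fold difference that was 3.05-fold with the other lengths. All 6 subunit genes were at 1 CPM or more, and *Prkar1a* made up 55.5% of their summed level per kb. *Prkaca* was in place 2 with 17.4%, 1.39-fold above *Prkacb*, the other catalytic gene. The level of *Prkar1a* was 6.37-fold that of *Prkar2a*, 14.2-fold that of *Prkar2b* and 29.8-fold that of *Prkar1b*. These places were the same with the highest transcript over the longest coding transcript. Without division by length, *Prkacb* (40.4 CPM) and *Prkar2a* (36.6 CPM) stood above *Prkaca* (29.4 CPM), so its place depended on that division. All these values are levels of RNA and give no ratio of subunits in the holoenzyme.

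The promoters were searched for the cyclic AMP response element, since it is bound by CREB, a transcription factor on which protein kinase A acts. The RefSeq promoter windows (GRCm38.p6, 250 bases before to 50 after a start) covered 8 of the genes in 18 windows, with no entry used here for *Adcy6* and *Pde3a*. The palindrome TGACGTCA, which reads the same on both strands, was found in *Prkar1a* alone of these 8, in 2 overlapping windows of its 6 and at 1 site, against 2.03% of 27025 genes. It is shown with 11 bases on each side and the element in capitals, on the plus strand.
Prkar1a, chr11:109650889-109650918: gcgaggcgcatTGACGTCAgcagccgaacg
Counted from the start sites of these windows, its first base lies at -49 from one and at 38 from the other. The shorter core TGACG, searched on both strands and contained in the palindrome, was found in *Avpr1a*, *Pde1a*, *Prkaca* and *Prkar1a*, against 23.0% of genes. A gene with several windows has more chances to hold a motif, so windows were counted too. The core was in 6 of the 18 windows, 3 of them of *Prkar1a*, against 20.8% of 32851 windows. The palindrome was in 2 of the 18, at the 1 site shown, against 1.79%. No difference was tested. A motif in these letters shows no binding.

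In order of level per kb the 10 genes were *Prkar1a* (41.1), *Adcy6* (16.3), *Prkaca* (12.9), *Pde1a* (9.50), *Avpr2* (7.71), *Pde4d* (4.58), *Avpr1a* (2.89), *Adcy3* (0.513), *Pde3a* (0.461) and *Adcy5* (0.420). The highest was 98.1-fold the lowest. The place of *Pde1a* depended on which of its tied RefSeq transcripts was used, since NM_001159582 with its shorter paired length gives 16.6 CPM per kb, level with *Adcy6* and above *Prkaca*. Without division by length, *Pde1a* (43.3 CPM) also stood above *Prkaca* (29.4 CPM). With the highest transcript over the longest coding transcript, the first 5 places were as listed. The last 5 were not, with *Avpr1a* (3.82) above *Pde4d* (3.2) and *Pde3a* (1.54) above *Adcy5* (0.513) and *Adcy3* (0.505). Because no spread between kidneys is known, no step in this order was tested. Set beside *Avpr2* per kb, the level of *Adcy6* was 2.12-fold (3.29-fold with the other lengths) and that of *Prkar1a* 5.34-fold (7.79-fold), while *Adcy3* and *Adcy5* stood below the receptor.

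**Figure D3:**
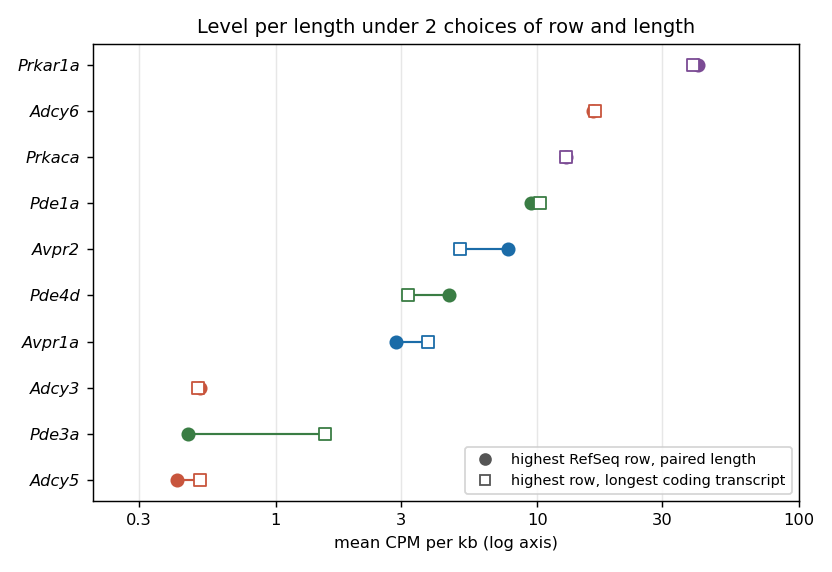
Mean CPM per kb (log axis) of the 10 genes by the highest RefSeq transcript over its paired length (circles) and by the highest transcript over the longest coding transcript of the gene (squares). Between these choices the 5 highest genes keep their order and Pde3a moves furthest, from 0.461 to 1.54 CPM per kb, while the tied shorter transcript of Pde1a, which would place it at 16.6, is not drawn.

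Among the 19009 genes with a paired length, *Prkar1a* stood at percentile 96.8, *Adcy6* at 91.4, *Prkaca* at 89.1, *Pde1a* at 85.1 and *Avpr2* at 81.8. *Pde4d* stood at 71.3 and *Avpr1a* at 61.7. *Adcy3*, *Pde3a* and *Adcy5* stood at 39.8, 39.1 and 38.6, between the low and the high mode of the distribution over all genes.

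**Figure D4:**
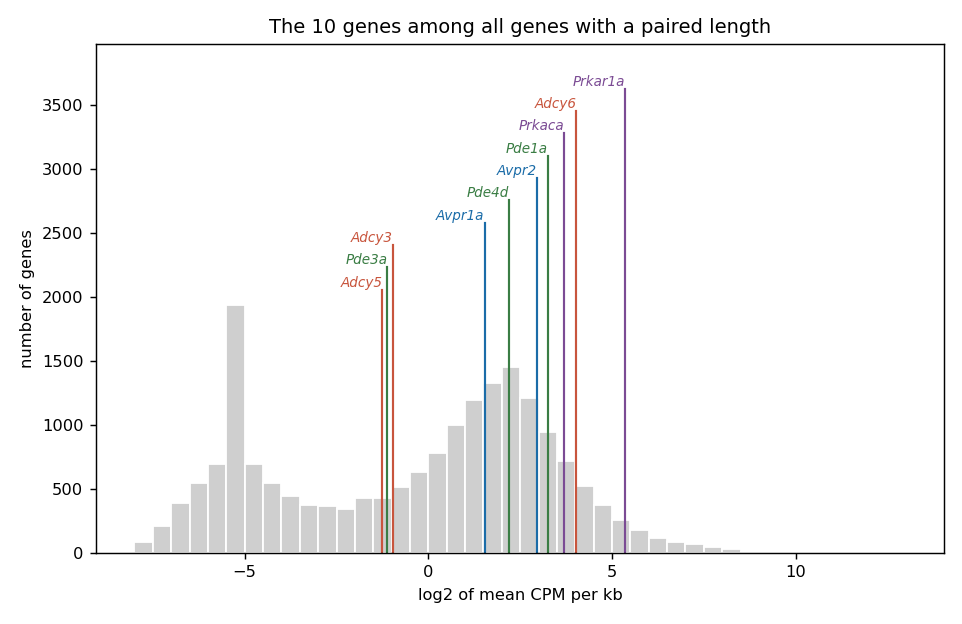
Number of genes in steps of log2 mean CPM per kb for the 19009 genes with a paired length (grey bars), with a vertical line for each of the 10 genes. Line heights only keep the names apart; 7 lines fall in the upper mode and those of Adcy5, Pde3a and Adcy3 below it.

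The 10 genes were set beside 100 other genes of the pathway, of which 80 (80.0%) were at 1 CPM or more. Of all gene symbols 55.9% were, and the counts of each list below stand beside that same share. Upstream, *Gnas*, which encodes the Gs alpha subunit, had 200.4 CPM and 15.1-fold the level of *Avpr2* per kb (10-fold with the other lengths), although *Gnas* gives rise to several overlapping transcripts. Of 8 G protein alpha genes, *Gnal* (0.740 CPM) alone was under 1 CPM. Of 12 other Gs-coupled receptors, 8 were at 1 CPM or more, with *Pth1r*, the parathyroid hormone receptor, the highest at 110.1 CPM, and *Ptger2* (0.138), *Calcr* (0.229), *Sctr* (0.229) and *Adrb1* (0.834) were not. Per kb, *Pth1r* stood at percentile 97.5 of all genes, above *Avpr2*. Of 7 Gi-coupled receptors, which lower cyclic AMP, 5 were at 1 CPM or more, and *Sstr1* (0.0526 CPM) and *Sstr2* (0.0482) were not. *Casr*, the calcium-sensing receptor, was the highest in CPM (46.1). By the paired length *Adra2b*, an alpha-2 adrenergic receptor, led with 9.30 CPM per kb, against 6.38 for *Ptger3* and 5.76 for *Casr*. With the highest transcript over the longest coding transcript, *Ptger3* led with 11.6, against 10.2 for *Casr* and 9.12 for *Adra2b*. The first place per kb thus depended on the choice of transcript and length.

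Downstream, all 9 transport genes regulated by vasopressin were at 1 CPM or more, from *Cftr*, the chloride channel of secreting cyst epithelium, at 3.88 CPM to *Slc12a1*, the cotransporter of the thick ascending limb, at 618 CPM. *Aqp2* had 52.2 CPM per kb, 6.77-fold the level of *Avpr2* (10.8-fold with the other lengths). All 8 CREB factors and coactivators passed as well, from *Crem* (5.68 CPM) to *Ep300* (51.4). Of 14 anchoring protein genes, 10 passed, with *Akap2* at 92.2 CPM, and *Akap3* (0.0612), *Akap4* (0.0306), *Akap5* (0.882) and *Akap6* (0.641) did not. *Rapgef3*, which encodes the exchange factor Epac1, led the other cyclic AMP effectors at 33.8 CPM, and *Popdc2* (0.178) and *Popdc3* (0.0365) were low.

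The regulators that act on the 10 gene products were mostly present. Of 3 kinase inhibitor genes, *Pkia* had 16.2 CPM, *Pkig* 14.7 and *Pkib* 0.708, and per kb the short *Pkig* led with 23.0 against 4.49 for *Pkia*. All 6 genes of receptor desensitisation passed, from *Grk4* (5.63 CPM) to *Arrb1*, beta-arrestin 1 (53.8). All 3 calmodulin genes, whose product activates the enzyme of *Pde1a*, lay between 113 CPM for *Calm3* and 161 CPM for *Calm2*.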

How the data were processed

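Total RNA of 6 kidneys (3 *Pkd1* F/RC SKO, 3 *Pkd1* F/RC DKO) was made into strand-specific libraries. The authors mapped single-end reads to mm10 with the iGenomes annotation. The submitters' processing notes name bcl2fastq 1.8.4, TopHat2 2.0.12, Cufflinks, featureCounts of Subread 1.4.6 and edgeR 3.2.4 as the authors' tools. The authors' deposited table holds, per transcript, a single mean abundance over all samples in log2 CPM. It also holds the log2 fold change, likelihood ratio, p-value and adjusted p-value of the authors' own comparison. Those comparison columns were not used. There are 0 columns of per-sample values, so the planned test of DKO against SKO could not be run, and depth per sample is unknown.

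The pooled log2 CPM was turned to CPM. A gene was represented by its highest transcript, with a minimum of 1 CPM for counts of expressed genes. Lengths came from GENCODE M21 on GRCm38 (the assembly of mm10), paired by the GENCODE table of RefSeq identifiers, for 92.9% of the 20470 symbols with a RefSeq mRNA. Sequences are from RefSeq and GENCODE. The scripts ran under Python 3.11.15 with pandas 2.3.3, numpy 2.4.6 and matplotlib 3.10.9, and were tested on simulated data.

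The 10 genes and the gene lists were chosen with earlier results of these data known. Named genes were all 10 with every transcript, the highest, the lowest and every gene under 1 CPM of each wider list, and every marker but 1, which is not reported here. *Adcy1*, *Adcy4*, *Adcy7*, *Adcy9*, *Pde4c*, *Pde8a*, *Pkig*, *Adra2b*, *Ptger3*, *Prkacb*, *Prkar2a*, *Prkar2b*, overlapping genes, *Pkd1* and *Mir17hg* fall outside that rule, and were chosen after their values were seen.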

Additional observations from a re-analysis of the deposited data

How the results depend on the processing

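All 10 genes reached 1 CPM by RefSeq transcripts alone, by the median over a gene's transcripts and with the lowest value subtracted, and 8 reached 5 CPM. Of the 110 pathway genes, 90 reached 1 CPM, also by RefSeq transcripts alone, and 74 reached 5 CPM. The median percentile of the 10 genes, 76.7, became 58.3 among genes at 1 CPM or more, 73.7 among genes with a RefSeq mRNA, 74.3 by the median over transcripts and 76.5 by CPM per kb, the last chosen after seeing the data. Of the 10 places in the order per kb, 5 stayed with the highest transcript over the longest coding transcript and 2 with CPM not divided by length. Tests by another tool, other normalizations, filters and leaving out replicates were not run, since the values are pooled. No paired analysis was possible because the table carries no value for a single kidney. Spread, depth and strand of counting are unknown, and lengths may differ from those the authors counted on.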
